A study of Mus musculus with 2 samples.

Results

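Megakaryocytes are the bone marrow and, in the mouse, spleen cells that shed platelets, and 9 genes that mark this lineage were followed in the spleens of mice with arthritis induced by glucose-6-phosphate isomerase (GPI). The genes were chosen by name, by taking each probe set whose annotation lists 1 symbol and no other, that symbol being one of the 9. Probe sets were found for 8 of the 9 genes (9 probe sets, of 20380 with a single symbol for 12393 genes), and Gp1ba had none. The animals were DBA/1 males aged 6 to 8 weeks. One group had received 300 μg of GPI-GST, human GPI joined to the carrier protein glutathione S-transferase (GST), and the control group 100 μg of GST alone, both in complete Freund's adjuvant, so that the groups share adjuvant and carrier and differ in the antigen. Spleens of 3 mice per group were taken at day 10, and each group was read on 1 Affymetrix mouse 430A2.0 array, whose probe sets each report 1 signal, a linear intensity. No source used here says whether the RNA of the 3 mice was pooled.

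A single array per group leaves nothing to test against, and every ratio, given without a p-value, describes these 2 arrays alone. The arrays differed little in overall brightness (median signal 48.65 for control and 51.8 for GPI-immunized), and ratios were formed without scaling. Bacterial control probe sets, which match no mouse transcript, reached a signal of at most 14.1, and a signal under this level is taken here as not above background. Genes called higher had a GPI-immunized signal 2-fold or more above the control signal, and genes called lower the reverse, provided that the brighter signal was 50.2 or more, the median of all signals of both arrays (the filter). Of the 6961 genes that passed this filter, 155 (2.23%) were higher and 31 (0.445%) were lower. Scaling both arrays to 1 median changed these counts to 111 and 47, which moved the share of higher genes among those called from 83.3% to 70.3%. The labelled tissue was borne out by bright B cell genes such as Cd79a (signals of 2961.3 and 2076.5, control array first) and by T cell genes such as Cd3d (475.1 and 414.6).

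A platelet carries its adhesion receptors on the surface and its chemokines and clotting proteins in α-granules. The integrin αIIbβ3, made of the Itga2b and Itgb3 chains, binds fibrinogen and links platelets to each other. The glycoprotein Ib-IX-V complex (Gp1ba, Gp1bb, Gp9 and Gp5) binds von Willebrand factor and tethers platelets to injured vessels. Activated platelets release platelet factor 4 (Pf4) and the precursor of several chemokines named pro-platelet basic protein (Ppbp), and bring the receptor TLT-1 (Treml1) from α-granules to the surface. Transcription of these genes in megakaryocytes depends on GATA-1 and on ETS family factors such as Fli-1.

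The sequence just before the start of transcription is shown for the 5 members whose signal passed the filter, because the motifs of these factors are the feature by which their promoters are usually compared. Each line gives 130 bases, 5′ to 3′ on the strand of the gene, ending at the base before the start annotated by RefSeq in assembly GRCm38.p6. Capitals mark the letters of a GATA motif (GATA preceded by A or T and followed by A or G) or of an ETS motif (GGAAG preceded by A or C), read on either strand. The windows are chr11:102469884-102470013 on the minus strand for Itga2b, chr16:30310782-30310911 on the minus strand for Gp5, chr6:87777940-87778069 on the plus strand for Gp9, chr5:90768388-90768517 on the plus strand for Ppbp and chr5:90772305-90772434 on the plus strand for Pf4. The window of Gp9 lies inside the annotated span of that gene, whose outermost start is further upstream. Ppbp and Pf4 are neighbours on chromosome 5, within a cluster of CXC chemokine genes.
Itga2b: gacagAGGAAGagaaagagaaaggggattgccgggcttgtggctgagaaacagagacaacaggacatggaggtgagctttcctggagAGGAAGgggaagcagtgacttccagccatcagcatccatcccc
Gp5: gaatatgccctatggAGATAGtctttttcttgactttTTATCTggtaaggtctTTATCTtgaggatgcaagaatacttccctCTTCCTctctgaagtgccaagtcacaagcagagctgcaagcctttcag
Gp9: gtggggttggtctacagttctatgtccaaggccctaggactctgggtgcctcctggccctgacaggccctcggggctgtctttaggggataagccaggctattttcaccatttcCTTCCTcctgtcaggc
Ppbp: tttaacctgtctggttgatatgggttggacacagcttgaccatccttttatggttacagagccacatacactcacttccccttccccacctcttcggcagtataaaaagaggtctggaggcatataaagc
Pf4: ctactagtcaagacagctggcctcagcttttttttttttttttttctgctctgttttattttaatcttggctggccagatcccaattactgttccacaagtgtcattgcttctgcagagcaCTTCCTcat

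Over the whole 250 bases before the start, a GATA motif was found in 3 of the 8 member genes listed with a promoter (Gp5, Gp1ba and Gp1bb) and an ETS motif in 6 of 8, all except Ppbp and Treml1. Of all 32851 promoter windows of this length, 26.5% held a GATA motif, 39.2% an ETS motif and 9.21% both. Gp5 held 3 GATA motifs, starting 115, 93 and 77 bases before the start, and 1 ETS motif 48 bases before it. Itga2b held 2 ETS motifs, 125 and 43 bases before the start, and no GATA motif in these letters. No GATA motif overlapped an ETS motif in a member. These matches are letters in a window and were not tested for binding. Itgb3 was not matched to a promoter.

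In all 8 members with a probe set the GPI-immunized signal exceeded the control signal, and none of the 6 members that lay above the bacterial level on both arrays reached a 2-fold ratio. The 8 values share 1 pair of arrays and are not replicates. A ratio above 1 was found for 54.2% of all genes measured. Of the 5 members that passed the filter, 0 were at least 2-fold higher and 0 at least 2-fold lower. At a threshold of 1.5, which 7.05% of the 6961 genes reached, Gp5 and Itga2b counted as higher, and this count of 2 was 0 of the 4 members that passed after division by the medians or quantile normalization and 1 of 5 (Gp5) after loess centring. The median log2 ratio of the 8 members was 0.58 (SD 0.30 over the members) and that of the 5 that passed was 0.50 (SD 0.26), against 0.050 over all genes and 0.056 over all genes that passed. The 8 include Itgb3 and Treml1, each with at least 1 signal at background. Over the 6 members above the bacterial level on both arrays the median was 0.48.

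**Figure D1:**
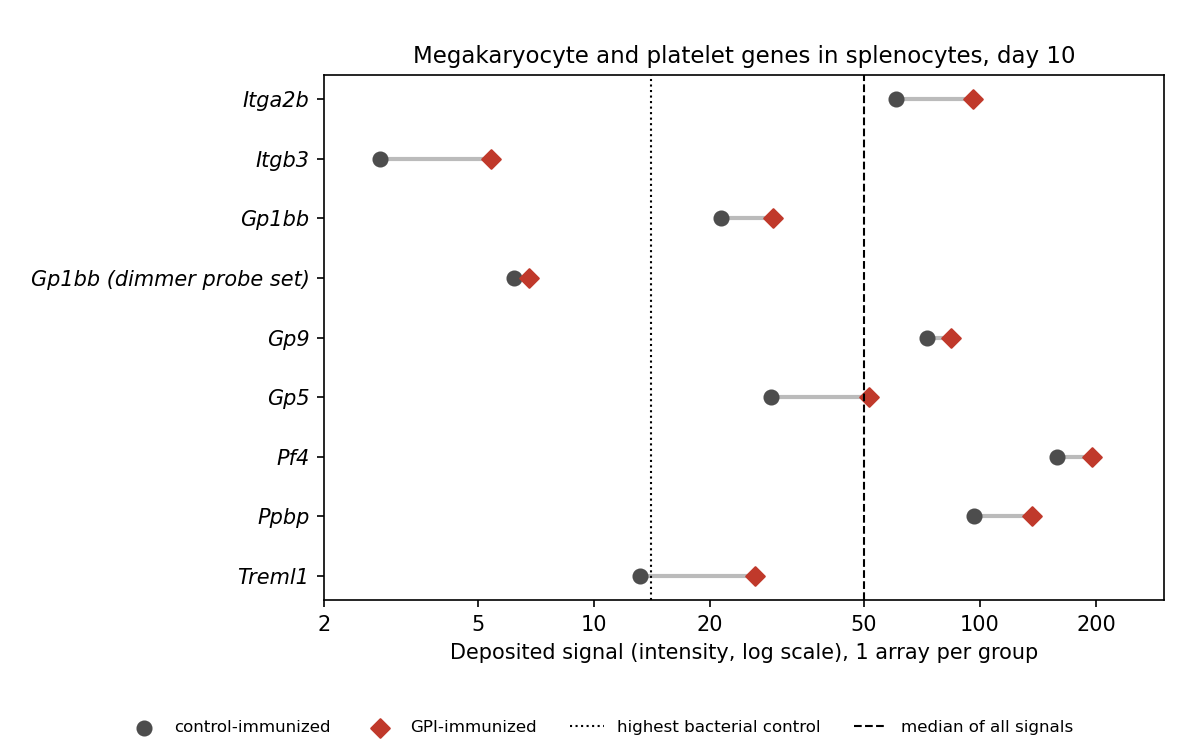
Deposited signal (horizontal axis, log scale) of the 9 probe sets of the members on the control array (grey circles) and the GPI-immunized array (red diamonds), 1 array per group. Every diamond lies to the right of its circle, and Itgb3 and the dimmer probe set of Gp1bb lie below the level of the bacterial probe sets, 14.1 (dotted line), while the median of all signals, 50.2, is the dashed line.

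The fibrinogen receptor was measured through 1 of its chains. Itga2b (integrin αIIb, CD41), the earliest surface marker of the megakaryocyte lineage in common use, gave signals of 60.6 (control) and 96.2 (GPI-immunized), a ratio of 1.59. Both signals lay above the median of all signals. Of the 6961 genes that passed, 94.6% had a lower ratio. Among the 500 probe sets nearest to it in mean log2 signal, the central 95% of ratios ran from 0.638 to 2.05, so that Itga2b lay inside the spread of probe sets of like brightness. Itgb3 (integrin β3, CD61), which also pairs with αv on other cells, had signals of 2.8 and 5.4. Both were under the bacterial level of 14.1, so no ratio is given and its level in these splenocytes was not determined.

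The von Willebrand factor receptor was represented by Gp5, Gp9 and Gp1bb. Gp5 (glycoprotein V, which thrombin cleaves) had signals of 28.7 and 51.7, a ratio of 1.80, the highest among the 5 members that passed. It passed only through its GPI-immunized signal, which exceeded the filter narrowly, and a gene that passes in this way has to differ. The central 95% of ratios at its brightness was 0.533 to 2.37. Gp9 (glycoprotein IX), which the complex needs to reach the cell surface, had signals of 72.9 and 84.1, a ratio of 1.15 and the lowest among the members. At its brightness the central 95% was 0.643 to 1.99. Thus genes of 1 receptor complex gave the highest and the lowest ratio of the 5.

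Gp1bb (glycoprotein Ibβ, the chain disulfide-linked to Ibα) was dimmer. Its brighter probe set had signals of 21.3 and 29.1, a ratio of 1.37, both above the bacterial level and under the median of all signals. Its other probe set had signals of 6.2 and 6.8, both under the bacterial level, and no ratio is given. A further probe set, which the annotation assigns to Gp1bb and to the neighbouring gene Septin5 together and which the naming rule therefore leaves out, had signals of 52.8 and 105.6, a ratio of 2.0. Which of the genes its signal comes from was not tested.

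The α-granule chemokines were above the filter on both arrays. Pf4 (CXCL4, which binds heparin) had signals of 158.4 and 195.8, a ratio of 1.24, against a central 95% of 0.653 to 1.73 at its brightness. Ppbp (CXCL7, whose cleavage yields neutrophil-attracting NAP-2) had signals of 96.4 and 136.6, a ratio of 1.42, against a central 95% of 0.662 to 1.83. Among the genes that passed, 78.6% had a lower ratio than Pf4 and 90.2% a lower ratio than Ppbp. Treml1 (TLT-1), an α-granule membrane receptor, had signals of 13.2 and 26.2 and did not pass the filter. Its control signal was under the bacterial level, and with that level in its place the ratio was 1.86, without scaling of the arrays. With signals raised to the median of all signals the ratio of Treml1 was 1.

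The 6 members above the bacterial level on both arrays lay inside the central 95% of ratios of probe sets of like signal. Itgb3 and Treml1 were not placed against this range, since at least 1 of their signals is at background.

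**Figure D2:**
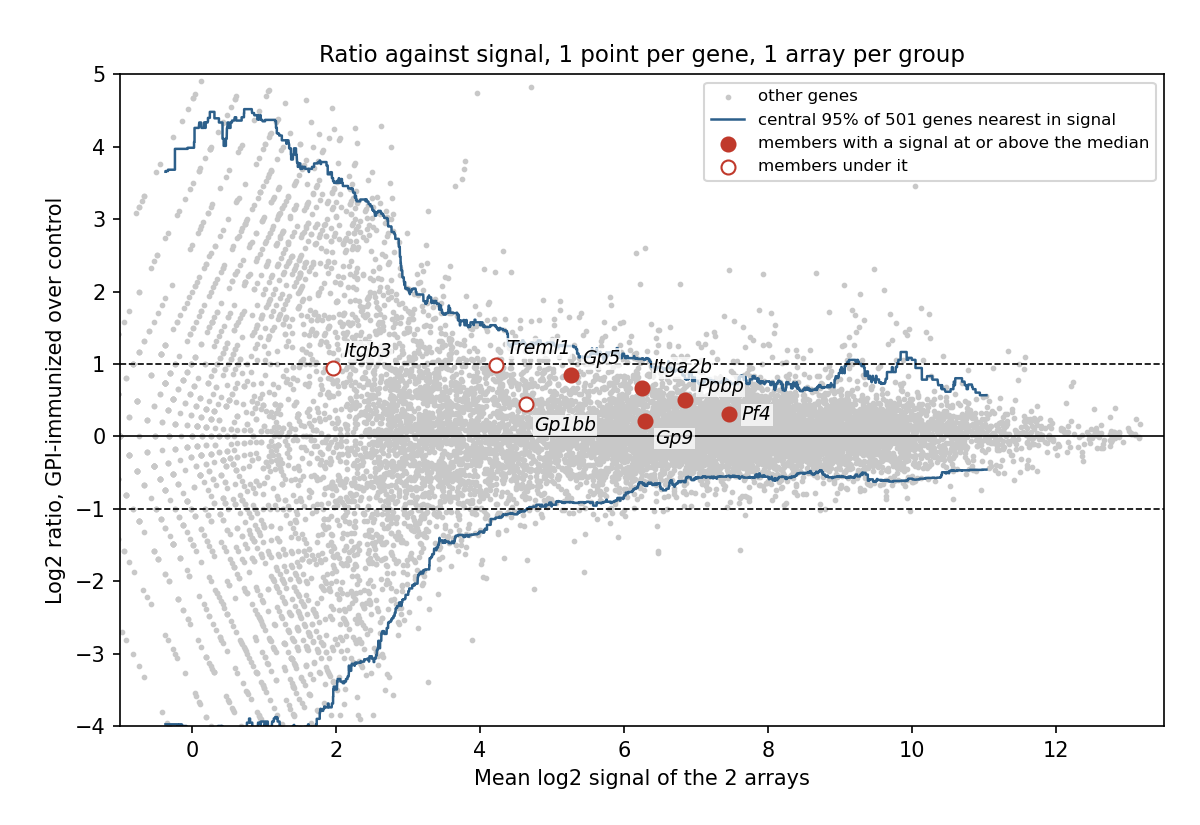
Log2 ratio, GPI-immunized over control (vertical axis), against the mean log2 signal (horizontal axis), 1 point per gene, with 170 genes beyond the axes not drawn. The blue lines enclose the central 95% of the 501 genes nearest in signal, the dashed lines are the 2-fold ratios, and the members (red, open where under the filter) lie above 0. Itgb3 and Treml1 are drawn at their deposited signals, of which at least 1 is at background, and the other 6 lie inside the blue lines.

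Dividing each array by its median left all 8 members above 1, while the share of all genes that passed with a ratio above 1 went from 57.5% to 45.1%. The median log2 ratio was then 0.49 over all 8 members and 0.31 over the 4 members that passed, against -0.035 over all genes that passed. Quantile normalization and centring on a loess curve also left all 8 above 1. These counts include Itgb3, whose signals are at background and equal once raised to the bacterial level. The 6 members above that level on both arrays had ratios of 1.08 to 1.69 after division by the medians, 1.08 to 1.68 after quantile normalization and 1.09 to 1.70 after loess centring. With these 3 scalings Itga2b fell just under 1.5 (1.48 with quantile normalization), and Gp5 was at 1.68 to 1.70.

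**Figure D3:**
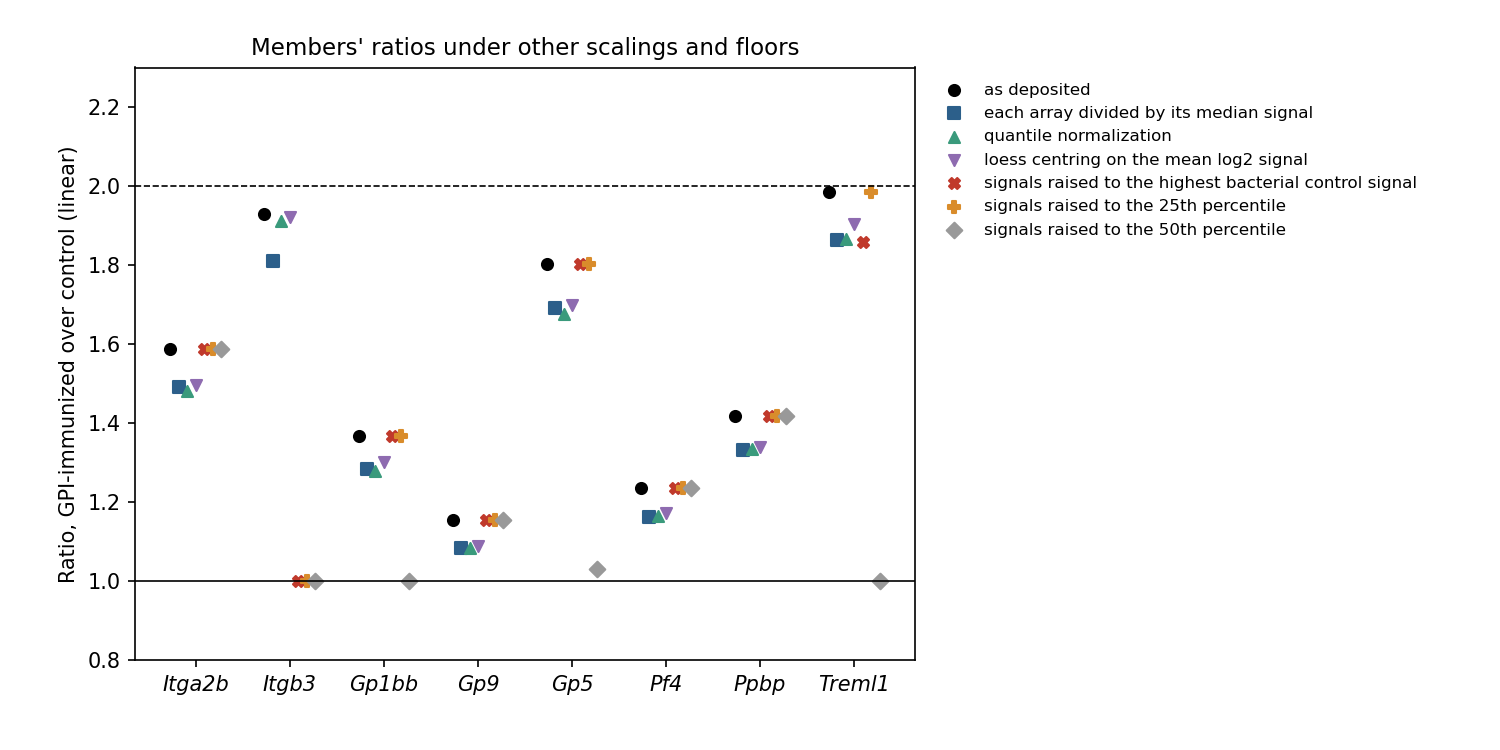
Ratio, GPI-immunized over control (vertical axis, linear), of the 8 members as deposited, under 3 other scalings and with low signals raised to 3 levels, 1 array per group. Itga2b, Gp9, Pf4 and Ppbp keep their ratios with every floor, while Gp5, Gp1bb, Treml1 and Itgb3 fall to 1.03 or to 1 when signals are raised to the median of all signals.

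Other genes of platelets and their precursors did not move as 1 block. Over 5 lists of such genes, 50 of 76 measured genes passed the filter, of which 3 were at least 2-fold higher (6.0%, against 2.23% of all genes that passed), 0 at least 2-fold lower and 47 between, with a median log2 ratio of 0.047 against 0.056 over all genes that passed. With each of the 3 other scalings 1 of 50 (2.0%) was higher, F13a1, against 1.60% to 1.71% of all genes that passed. The lists were chosen with earlier results of these data known.

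Among other platelet receptors and adhesion molecules, 7 of 17 measured genes passed, with 4 ratios above 1, 3 below it (0.770 to 0.948), 1 gene called higher, 0 lower and a median log2 ratio of 0.42. P2rx1, an ATP-gated cation channel, gave signals of 31.6 and 63.6 (ratio 2.01) and passed through its GPI-immunized signal alone. Its other probe set had a ratio of 1.07, and after division by the medians its log2 ratio was 0.92, short of 2-fold. The tetraspanin Cd9 had signals of 269.5 and 488.9, a ratio of 1.81. Clec1b (CLEC-2, the podoplanin receptor of platelets) had signals of 53.4 and 73.3, a ratio of 1.37. For the broadly expressed integrin chain Itgb1, the ratio was 1.33 but ranged from 0.50 to 3.61 over its 6 probe sets. Of the 10 genes too dim to pass, 6 had a higher GPI-immunized signal. The ADP receptor P2ry12, the target of clopidogrel, had signals of 22.6 and 31.9, and the thromboxane receptor Tbxa2r 36.0 and 47.7. The collagen receptor gene Gp6 had no probe set.

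Among other platelet granule proteins, 5 of 14 measured genes passed, all with ratios above 1 (median log2 ratio 0.49), and 2 were called higher. With probe sets averaged this median was 1.02, the averaged value of Clu. The factor XIII A chain F13a1, which cross-links fibrin and is also made by monocytes and macrophages, had signals of 164.3 and 443.5, a ratio of 2.70. Coagulation factor V (F5) had signals of 72.0 and 151.7, a ratio of 2.11 (2.60 for its other probe set) and a log2 ratio of 0.98 after division by the medians. The ratio of clusterin (Clu) was 1.40, and its 4 probe sets reached 4.06. Transforming growth factor β1 (Tgfb1) had a ratio of 1.31. Classical granule proteins shared with endothelium were dim. Vwf (von Willebrand factor) had signals of 41.5 and 27.7, and Selp (P-selectin) 29.3 and 26.5, both lower on the GPI-immunized array and neither past the filter. The dimmer probe set of Selp went the other way, with a ratio of 1.75. Of the 9 genes of this list too dim to pass, 6 had a higher GPI-immunized signal.

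The genes of the platelet cytoskeleton, signalling and eicosanoid synthesis lay close to a ratio of 1. Of 14 that passed, 0 were 2-fold higher or lower, the ratios ran from 0.791 (Vps33b, needed for α-granule formation) to 1.30 (Rgs18, a regulator of G protein signalling abundant in platelets), and the median log2 ratio was 0.079. Rgs10 had a ratio of 1.24 and the thromboxane synthase Tbxas1 one of 1.28. Thrombopoietin signalling, the main growth signal of megakaryocytes, showed a median log2 ratio of 0.13 over 8 genes that passed, with 0 higher or lower. Stat3 was at 1.47, Grb2 at 1.27, Stat5a at 1.24 and Jak2 at 0.809.

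Most transcription factors of the lineage had a ratio below 1 in the probe set that stood for them. Of 16 that passed, 12 were below 1, against 2950 of the 6961 genes that passed. None was higher or lower by 2-fold, and the median log2 ratio was -0.15, or -0.056 with probe sets averaged. Of these 12, Runx1, Gata2, Mafg and Gabpa had other probe sets that reached 1.39, 1.41, 1.41 and 1.33. All probe sets of Fli1, Ets1 and Srf stayed below 1, and the rest had a single probe set. Gata1, on which megakaryocytes and red cell precursors both depend, had the highest ratio of the list, 1.35, from signals of 455.1 and 614.5. Fli1, the ETS factor of the lineage that B and T cells also express, had a ratio of 0.793. The lowest were Ets1 (0.596) and Hhex (0.608), which lymphocytes express as well.

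**Figure D4:**
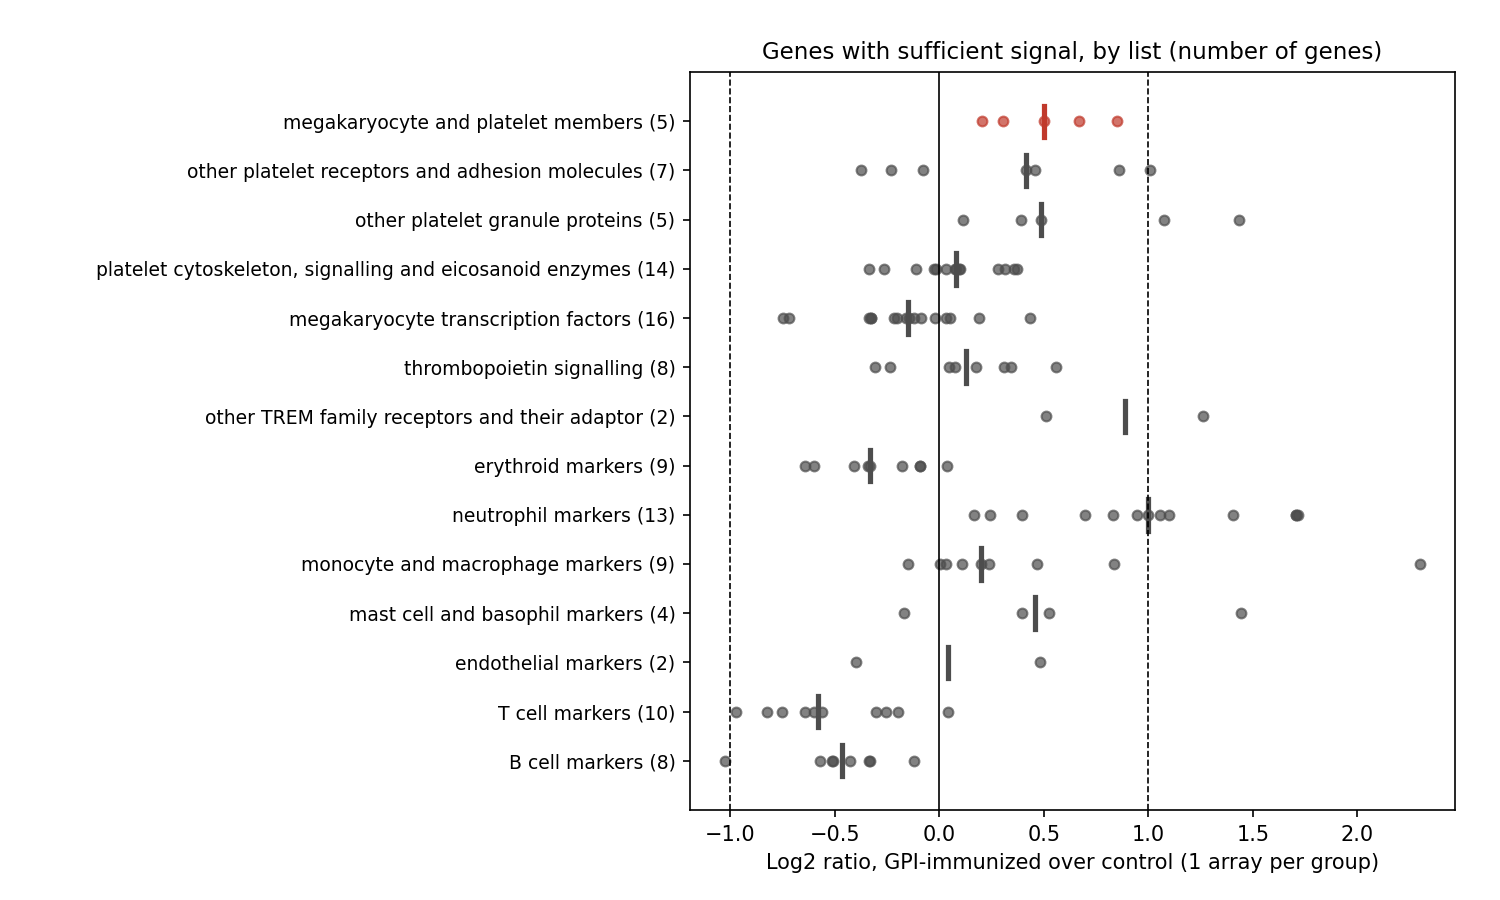
Log2 ratios, GPI-immunized over control (horizontal axis), of every gene with sufficient signal in 14 lists, 1 point per gene and 1 array per group (bars, list medians, dashed lines, 2-fold ratios). The 5 members (red) lie between 0.21 and 0.85, 8 of the 13 neutrophil markers lie further right than all of them, and the erythroid, T and B cell markers mostly left of 0.

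Markers of other spleen cells differed between the same arrays. In bulk RNA, fewer cells of a type and less RNA per cell cannot be told apart. Among neutrophil markers, 13 of 13 measured were above 1 and 6 were called higher (median log2 ratio 1.00), led by Mmp8 (3.28), Mmp9 (3.26), Cxcr2 (3.26) and Prtn3 (2.65). Cxcr2 (23.5 and 76.6) passed through its GPI-immunized signal alone, and its log2 ratio of 1.70 was 0.61 with signals raised to the median of all signals. Their signals summed to 34974.3 in the control and to 50871.1 after GPI. Of 11 T cell markers 1 had a ratio above 1 (median of the 10 that passed -0.58, summed signal 2620.9 and 1821.1), with Cd3e at 0.509, Il7r at 0.565, Cd4 at 0.594 and Ccr7 at 0.641. Of 8 B cell markers that passed 0 had a ratio above 1 (median -0.47, summed signal of the 9 measured 15530.2 and 11552.6), with Fcer2a at 0.491, Blk at 0.674, Cd79a at 0.701 and Cd22 at 0.703. Pax5, the measured B cell marker that did not pass, had signals of 6.4 and 15.0, higher on the GPI-immunized array, with the control signal at background. No measured marker of these lists had a signal of 0. The part of these lists in the ratios of the members was not tested.

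Erythroid cells, which arise from a progenitor shared with megakaryocytes, gave ratios below 1 in 8 of 9 measured markers, with a median log2 ratio of -0.33 (SD 0.23), against 0.50 (SD 0.26) for the 5 members that passed, and a summed signal of 21239.5 and 17574.5. Epb42 was at 0.641, Ank1 at 0.660, Rhd at 0.753 and the anion exchanger Slc4a1 at 0.790. Dimmer probe sets of Epb42, Ank1 and Slc4a1 reached 0.984, 0.891 and 1.05. With probe sets averaged, the median log2 ratio of the erythroid list was -0.24. These SDs are over genes on 1 pair of arrays, and the 5 members include Gp5, which passed through its GPI-immunized signal alone. After division by the medians, the median was -0.42 for the erythroid list and 0.31 for the 4 members that passed. The difference between the lists has no replicate check. Mast cells and basophils can carry αIIb too. Of their 6 measured markers 4 passed, with 1 higher, a median log2 ratio of 0.46 and a summed signal of 525.4 and 714.3. Hdc, the histamine-forming enzyme that neutrophils also express, was at 2.72, the basophil protease Mcpt8 at 1.44, Cpa3 at 1.31 and Kit at 0.891. Of 8 endothelial markers, 5 were under the bacterial level on both arrays and 2 passed, Pecam1 at 0.758 and Eng at 1.40, with a summed signal of 431.1 and 405.0. Of 9 monocyte and macrophage markers that passed 1 was higher, Cd14 at 4.93, with a median log2 ratio of 0.20 and a summed signal over 10 genes of 7591.5 and 9824.3. Ccr2 was at 1.78, Lyz2 at 1.38 and Cd68 at 1.18.

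Relatives of Treml1 in the TREM family, which myeloid cells express, were followed as well. Trem3 had signals of 158.1 and 379.4, a ratio of 2.40, and the shared adaptor gene Tyrobp signals of 1582.2 and 2253.2, a ratio of 1.42. These were the 2 of 4 measured genes that passed (median log2 ratio 0.89). Trem1, named after its values were seen, had signals of 8.2 and 48.3 and did not pass the filter. With the bacterial level in place of its control signal, the ratio of Trem1 was 3.43.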

How the data were processed

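Splenocyte RNA was hybridized to 1 Affymetrix mouse 430A2.0 array per group. The authors deposited 1 intensity per probe set and array on a linear scale. The methods name only gene expression software, and no source used here states the summarization, the scaling or the detection calls. The labels describe labelled cDNA from a whole-transcript kit, whereas the methods describe biotinylated cRNA.

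Of 22626 probe sets besides 64 control probe sets, 20380 had 1 gene symbol in the platform annotation, 691 several and 1555 none. Where a gene had several probe sets, the one brightest on average (log2 scale) stood for it, and 3 signals of 0 were set to 0.1. Every gene named follows a fixed rule (all members, up to 4 genes of each list furthest from a ratio of 1 among those that passed, and genes at least 2-fold changed), except genes given as not passing or not measured, examples of tissue identity, and Trem1. The members and the 13 other lists were chosen with earlier results of these data known. The number of arrays limits the precision.

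Promoter windows came from RefSeq (GRCm38.p6), in which 8 of 9 members were matched. The files name no build, and no other coordinates are given. The steps were checked on simulated data with planted changes above 2-fold and noise set from the spread between probe sets of 1 gene. This checked the calculation and does not bear on ratios as small as those of the members. Alternatives were other scalings, floors, filters, probe set rules and fold thresholds. The scripts used matplotlib 3.10.9, statsmodels 0.14.6, pandas 2.3.3, numpy 2.4.6 and scipy 1.17.1 under Python 3.11.15.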

Additional observations from a re-analysis of the deposited data

How the results depend on the processing

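The counts of members at least 2-fold higher (0) and at least 2-fold lower (0) were the same under 3 other scalings, 3 floors on low signals, 2 other rules for probe sets and the 2 filters that left members to call. A 3-fold threshold and a filter at the 75th percentile, which left 0 members, could not have changed a count of 0. The floors only draw ratios towards 1 and could not have changed it either. Nor could the rules for probe sets, since among the members only Gp1bb, under the filter, had more than 1. Division by the medians lowers every ratio alike and could not have raised the count of higher members. At a 1.5-fold threshold 2 members (Gp5 and Itga2b) were higher and 0 lower, but 0 were higher after division by the medians or quantile normalization and 1 (Gp5) after loess centring. The median log2 ratio of the 8 members (0.58) fell to 0.12 with signals raised to the median of all signals. That floor sets both signals of Itgb3, Gp1bb and Treml1 to 1 value. Under the other alternatives the median lay between 0.48 and 0.58. Over the members that passed the filter, the median (0.50) moved further with scaling. It was 0.31 after division by the medians, 0.32 after quantile normalization and 0.42 after loess centring. With signals raised to the median of all signals it was 0.31. No member fell below a ratio of 1, and under the 3 scalings the lowest was Gp9, at 1.08 to 1.09. Of each other list up to 4 genes were followed through the alternatives, and none of those called higher or lower changed sign. Floors and filters cannot take a ratio across 1, and division by the medians lowers it by a factor of only 1.06. For genes called at 2-fold or more, these alternatives were therefore no check of the sign. The remaining called genes were not followed. The median log2 ratio of the cytoskeleton, signalling and eicosanoid list (0.079) was -0.011 after division by the medians. That of the other platelet granule proteins (0.49) was 1.02 with probe sets averaged. That of the 2 endothelial markers (0.041) was -0.049, -0.039 and -0.034 under the 3 scalings and -0.11 with probe sets averaged. The endothelial median was 0.48, the value of Eng, with the filter at the 25th percentile. At the stricter filter (75th percentile) it was -0.40, the value of Pecam1. Division by the medians or quantile normalization left 4 members past the filter, without Gp5. Of the genes at least 2-fold higher in the other platelet lists, F13a1 stayed above 2-fold under every scaling, while F5 and P2rx1 fell under it under each of the 3 other scalings, with log2 ratios of 0.98 to 0.99 and 0.90 to 0.92. The log2 ratio of P2rx1 was 0.34 with signals raised to the median of all signals. No paired analysis was possible because each group has 1 array.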
